A study of Mus musculus with 6 samples.

Results

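The Toll-like and NOD receptors, their adaptors, and the IRAK, TRAF, TAK1, RIP and IKK proteins that carry their signal were examined in mouse spermatogonial stem cells (SSCs) and in the induced cells, termed neural stem cell-like (iNSCs), that were made out of them. The 42 genes were taken by symbol from a deposited table of 55401 genes, and each symbol matched 1 row. The SSC libraries (3) come from testis cells of 6-day-old males, kept on STO feeders, an inactivated mouse embryo cell line, in serum-containing medium (10%) with EGF and GDNF at 20 ng/mL each and LIF and bFGF at 10 ng/mL each. The iNSC libraries (3) come from male cells after 6 days of transdifferentiation on laminin. Those cells received retinoic acid at 1 µM in SSC medium for 24 h. A medium with N2, B27, 1% serum, bFGF at 20 ng/mL and SB431542 at 10 µM, an inhibitor of TGF-beta type I receptors, followed. The labels name no genetic change in either group. Cell fate, feeders and medium differ together and cannot be told apart. The study's title asks about a path from YTHDF1 through IkB and NF-kB to cyclin D1, and the genes described here encode the receptors and kinases that act on IkB. Their mRNA levels do not measure kinase activity.

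Toll-like receptors bind microbial lipids, proteins and nucleic acids at the cell surface or in endosomes. Most of them signal through the adaptor MyD88 and the IRAK kinases to the ubiquitin ligase TRAF6. TRAF6 activates the kinase TAK1, and TAK1 activates the IKK complex, which marks IkB for destruction and so frees NF-kB. A separate branch runs from the adaptor TRIF, encoded by Ticam1, through TRAF3 to the kinases TBK1 and IKK epsilon and on to interferon regulatory factors. The cytoplasmic sensors NOD1 and NOD2 join the path through the kinase RIPK2. The pathway is best known from innate immune cells and from epithelia.

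Total counts lay between 18058551 and 20156067 per library, and 3 counts corresponded to 0.149 to 0.166 CPM (counts scaled to the library total). The titles gave the groups. The cell type label names the opposite group in all 6 samples. Of 7 spermatogonial and germ cell markers, 7 fell in iNSCs, from a summed 450 to 602 FPKM in SSCs to 17.3 to 21.1 FPKM (fragments scaled to exonic length and library total). Neural stem cell markers went both ways, and 4 of the 6 were tested. Nes and Prom1 rose. Sox2 fell, from 9.16 to 13.22 FPKM in SSCs to 0 to 0.05 FPKM in iNSCs. Pax6 fell as well, from 0.05 to 0.12 FPKM to 0.02 to 0.04 FPKM. Sox1, at 0.09 to 0.22 FPKM in SSCs and 0 FPKM in iNSCs, was not tested. Neither was Fabp7, at 0 to 0.04 FPKM in SSCs and 0.12 to 0.56 FPKM in iNSCs. Markers of simple epithelia summed to 2806 to 3346 FPKM in iNSCs and 152 to 251 FPKM in SSCs. Fibroblast and feeder markers summed to 538, 457 and 69.0 FPKM in SSCs replicates 1 to 3. In iNSCs replicates 1 to 3 they summed to 149, 128 and 175 FPKM. Of these 8 markers, 3 rose (Thy1, Pdgfra and Dcn) and 2 fell (Postn and Lox). The collagens Col1a1, Col1a2 and Col3a1 were not called. Over all genes tested, 25.7% rose and 27.6% fell. Sertoli cell markers summed to 322, 56.8 and 110 FPKM in SSCs and to 685, 878 and 828 FPKM in iNSCs. Most of each sum was Clu, at 279.73, 44.18 and 94.97 FPKM in SSCs and 546.84, 750.45 and 713.04 FPKM in iNSCs. All 5 that were tested rose (Sox9, Gata4, Clu, Cst12 and Wt1). Amh was not tested, with 0.53, 0.13 and 1.06 FPKM in SSCs and 0.09 to 0.18 FPKM in iNSCs. In such bulk libraries fewer cells of a type and less RNA per cell cannot be told apart.

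Promoter windows of the members with the largest changes are shown first, since several of these receptors and kinases are known NF-kB targets. Windows from RefSeq (GRCm38.p6) run from 250 bases before to 50 bases after a gene's start, 300 bases in all, and 35 of the 42 members had at least 1. Capitals mark matches to the general kB consensus of NF-kB, searched on both strands, and positions are counted from the RefSeq start. Ikbke lies at chr1:131279514-131279813 on the minus strand, Tlr2 at chr3:83841559-83841858 on the minus strand, Tlr5 at chr1:182954538-182954837 on the plus strand, and Tab3, the member that fell, at chrX:85573772-85574071 on the plus strand.
Ikbke: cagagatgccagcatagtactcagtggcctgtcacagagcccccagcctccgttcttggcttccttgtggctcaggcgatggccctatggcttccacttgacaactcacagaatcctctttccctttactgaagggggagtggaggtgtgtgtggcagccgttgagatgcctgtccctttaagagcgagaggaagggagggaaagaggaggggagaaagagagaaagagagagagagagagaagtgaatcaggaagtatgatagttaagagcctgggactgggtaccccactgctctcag
Tlr2: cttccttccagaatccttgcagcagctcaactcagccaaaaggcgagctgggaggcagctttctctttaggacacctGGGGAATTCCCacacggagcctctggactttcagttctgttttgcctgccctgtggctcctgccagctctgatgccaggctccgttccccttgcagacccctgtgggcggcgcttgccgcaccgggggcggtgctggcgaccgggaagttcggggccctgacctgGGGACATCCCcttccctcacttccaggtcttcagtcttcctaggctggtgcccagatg
Tlr5: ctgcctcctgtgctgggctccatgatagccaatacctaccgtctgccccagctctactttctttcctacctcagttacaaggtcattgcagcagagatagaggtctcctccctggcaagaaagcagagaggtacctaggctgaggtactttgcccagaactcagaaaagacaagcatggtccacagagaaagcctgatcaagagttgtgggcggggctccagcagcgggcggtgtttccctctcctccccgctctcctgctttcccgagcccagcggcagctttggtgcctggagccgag
Tab3: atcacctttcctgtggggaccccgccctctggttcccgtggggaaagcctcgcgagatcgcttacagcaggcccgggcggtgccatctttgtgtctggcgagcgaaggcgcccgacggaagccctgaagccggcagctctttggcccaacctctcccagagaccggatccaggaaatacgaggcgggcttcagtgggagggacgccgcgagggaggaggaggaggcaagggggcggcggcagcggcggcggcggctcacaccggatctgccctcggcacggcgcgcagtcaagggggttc
The Tlr2 window held 3 matches to the general consensus, starting 173, 172 and 8 bases before its RefSeq start, of which the first 2 overlap. The start of Tlr2 in that annotation lies 159 bases inside the start of the deposited table. These letters were not found in the windows of Ikbke, Tlr5 and Tab3. Among all 32851 mouse windows 4.51% held the general consensus, against 4 of the 46 windows of the members. Its stricter, near-palindromic form, every match of which is also a match to the general one, was in 0.411% of all windows and in 2 of the members' windows, those of Tlr3 (GGGAGTTTCC, 211 bases before the start) and Map3k7 (GGAAATTCCC on the strand shown, 92 bases before it). The RefSeq start of that Tlr3 window lies 700 bases inside the start of the deposited table, and that of Map3k7 10 bases inside. The core of the interferon-stimulated response element was in 3.44% of all windows and in 4 of the 46. Members that rose held the general consensus in 2 of 22 windows, and tested members that did not rise in 2 of 17.

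Most of the receptors that could be tested, all 4 IRAK kinases and 3 of the 5 IKK family genes rose in iNSCs. Myd88, the TAK1 gene Map3k7, Chuk and Tbk1 were not called, and the TAK1 partner Tab3 fell. A gene was said to rise or fall at a Benjamini-Hochberg adjusted p under 0.05 in edgeR's quasi-likelihood test together with a log2 difference (iNSCs minus SSCs) of at least 1. Of the 42 members, 34 had enough counts to be tested, 18 rose and 1 fell. Over all 17387 genes tested, 25.7% rose and 27.6% fell. With the adjusted p alone, 24 members were higher and 2 lower, against 35.6% and 38.3% of all genes. The median log2 difference was 1.47 over the tested members and -0.05 over all tested genes. Of the 34, 31 reached the count minimum in both groups, and Tlr5, Tlr6 and Nod2 reached it in every iNSC library but not in every SSC library. These 3 entered the test through their iNSC counts, so the counts over the 34 describe the tested members and not the 42.

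**Figure D1:**
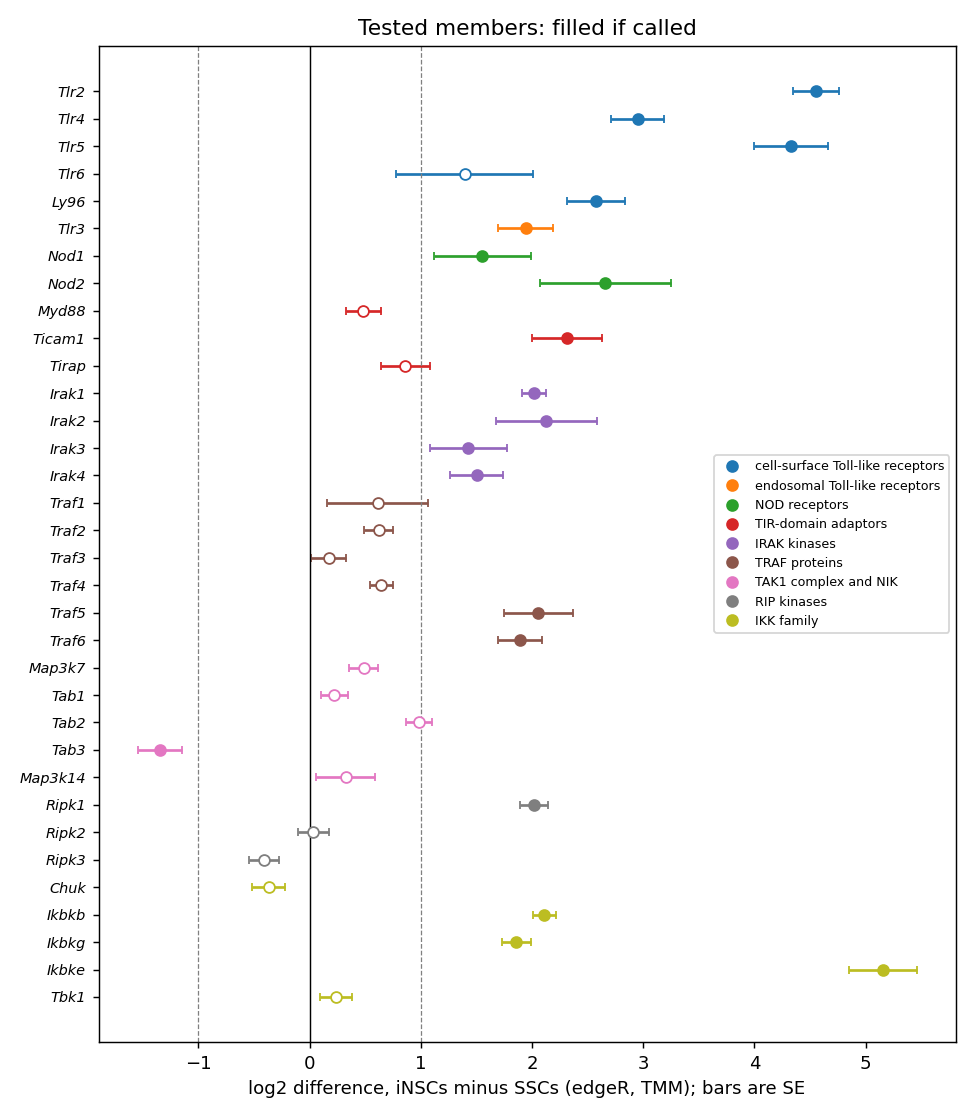
Log2 difference between iNSCs and SSCs for the 34 tested members, in the order of the pathway from receptors (top) to IKK kinases (bottom), with standard errors as bars. Filled points passed both thresholds, dashed lines stand at -1 and 1, and the points of Tlr2, Tlr5 and Ikbke lie beyond 4 while Tab3 lies below -1.

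The receptors at the cell surface came first. Tlr2, a receptor for bacterial lipoproteins (ENSMUSG00000027995, GRCm38 chromosome 3, 83836272 to 83841767, minus strand), had 0.70, 0.42 and 0.50 FPKM in SSCs replicates 1 to 3, from 41, 23 and 28 counts, and 11.16, 10.38 and 10.53 FPKM in iNSCs replicates 1 to 3, from 631, 611 and 640 counts. Its groups lay far apart, with a log2 difference of 4.56 (SE 0.20, adjusted p = 3.49e-06). Tlr5, the flagellin receptor, was at 0.11, 0.27 and 0.16 FPKM in SSCs, from 10, 23 and 14 counts, and at 2.76, 3.14 and 3.10 FPKM in iNSCs, from 248, 294 and 299 counts (log2 4.33, SE 0.33, adjusted p = 2.66e-05). The lipopolysaccharide receptor Tlr4 had 0.52, 0.67 and 0.86 FPKM in SSCs, from 56, 67 and 89 counts, and 4.13, 4.87 and 4.33 FPKM in iNSCs, from 431, 528 and 485 counts (log2 2.95, SE 0.24). Ly96 encodes MD-2, the protein that holds lipopolysaccharide for TLR4. It was at 0.76, 0.71 and 0.84 FPKM in SSCs, from 15, 13 and 16 counts, and at 3.60, 4.16 and 3.84 FPKM in iNSCs, from 69, 83 and 79 counts (log2 2.58, SE 0.26). Within each library Tlr4 and Ly96 were close in FPKM, with a ratio of 0.684 to 1.02 in SSCs and of 1.13 to 1.17 in iNSCs.

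The partners with which TLR2 forms its heterodimers were scarce. Tlr1 had 2, 3 and 1 counts in SSCs replicates 1 to 3 and 6, 19 and 15 counts in iNSCs, too few for the count minimum. Without that minimum it was higher in iNSCs (log2 2.87, adjusted p = 0.00586, edgeR). Tlr6 had 0.11, 0.34 and 0.04 FPKM in SSCs, from 8, 23 and 3 counts, and 0.40, 0.33 and 0.36 FPKM in iNSCs, from 28, 24 and 27 counts, so that the groups overlapped (log2 1.39, SE 0.62, adjusted p = 0.0753). Its call turned on SSCs replicate 2, without which the log2 difference was 2.47 (adjusted p = 0.00559). Tlr1 and Tlr6 share part of their sequence: 15.4% of the 50-base words in the transcripts of Tlr1 and 12.3% of those of Tlr6 occur in another gene, mostly in each other. How such reads were counted is not given in the sources used here.

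Of the endosomal receptors, Tlr3 was the one with a clear signal. Tlr3, which binds double-stranded RNA (ENSMUSG00000031639, chromosome 8, 45395665 to 45411080, minus strand), had 1.47, 2.39 and 2.69 FPKM in SSCs, from 148, 225 and 262 counts, and 7.0, 7.35 and 6.92 FPKM in iNSCs, from 684, 747 and 726 counts. All iNSC libraries were above all SSC libraries (log2 1.94, SE 0.25, adjusted p = 0.000298). Tlr8 and Tlr11 had 0 counts in all 6 libraries, which allows up to 3 counts in each. Tlr7, a receptor for single-stranded RNA, had 2 counts in SSCs and 13 in iNSCs, a ratio of scaled counts of 7.45 (95% Clopper-Pearson interval 1.69 to 68.0, counting error only). Without the count minimum Tlr7 was not called in edgeR (adjusted p = 0.0721), nor was it in DESeq2 (adjusted p = 0.0788). The DNA receptor Tlr9 had 1, 0 and 2 counts in the SSC libraries and 0, 8 and 1 counts in those of iNSCs, in the order of replicates, a ratio of 3.44 (0.858 to 19.8). The excess lay in iNSCs replicate 2, without which the ratio was 0.575 (0.0110 to 7.16). Tlr13, a receptor for bacterial ribosomal RNA in mice, had 17 and 12 counts.

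Tlr12 had counts in the SSC libraries and none in iNSCs. This mouse receptor for a protozoan profilin had 4, 12 and 38 counts in SSCs replicates 1, 2 and 3 and 0 in every iNSC library. Against a floor of 3 counts over the group it was at least 15.7-fold lower in iNSCs. SSCs replicate 3 held most of the counts, and without it the bound was 6.84-fold; without any 1 of the iNSC libraries it was 10.3-fold to 10.6-fold. It missed the count minimum and has no call under the test used here. Without the minimum it was called lower in edgeR (adjusted p = 0.00266), as it was in DESeq2 (adjusted p = 0.000194). It was also called lower without SSCs replicate 1 or any of the iNSC libraries, and was not tested without SSCs replicate 2 or 3.

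**Figure D2:**
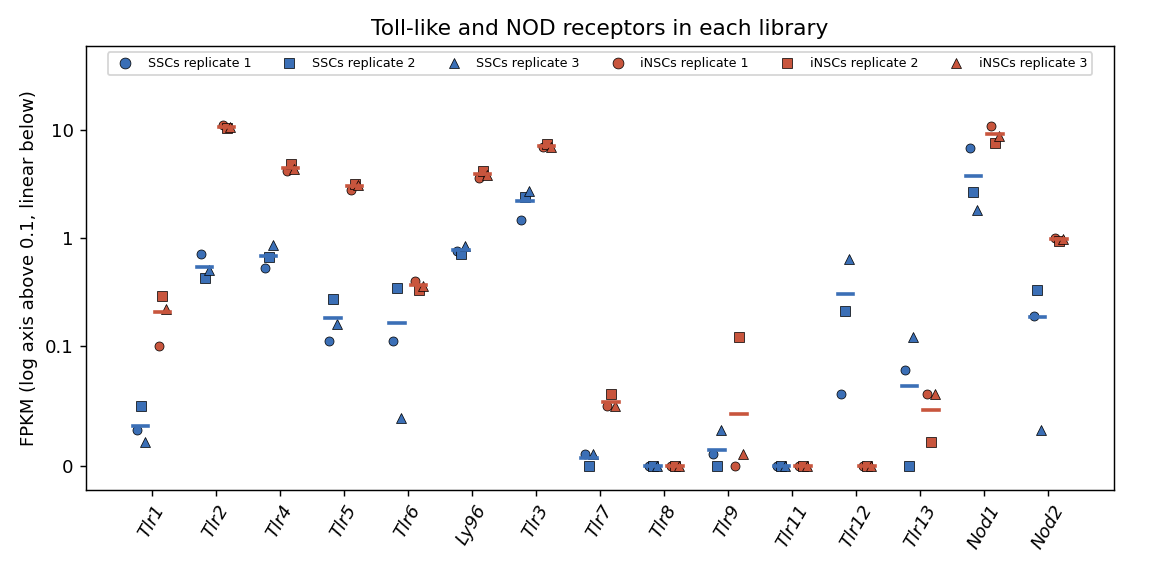
FPKM of the Toll-like receptors, the TLR4 partner Ly96 and the NOD receptors in each of the 6 libraries, with group means as short lines, on an axis that is logarithmic above 0.1 and linear below. Tlr2 reaches 11.16 FPKM in iNSCs, Tlr8 and Tlr11 lie at 0 throughout, and Tlr12 lies at 0 in the iNSC libraries.

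The sensors of bacterial cell wall fragments rose with wide spread among SSC libraries. Nod1 had 6.81, 2.64 and 1.81 FPKM in SSCs replicates 1 to 3, from 670, 242 and 172 counts, and 10.90, 7.58 and 8.76 FPKM in iNSCs, from 1039, 752 and 897 counts (log2 1.55, SE 0.44, adjusted p = 0.0135). SSCs replicate 1 came close to the iNSC libraries: the log2 difference was 2.26 without it, and without SSCs replicate 2 the call was lost (adjusted p = 0.0556). Nod2 had 0.19, 0.33 and 0.03 FPKM in SSCs, from 18, 30 and 3 counts, and 1.00, 0.93 and 0.97 FPKM in iNSCs, from 94, 91 and 98 counts (log2 2.66, SE 0.59, adjusted p = 0.00449), and a log2 difference of 3.40 without SSCs replicate 2. With limma on log2(FPKM + 1) the difference of Nod2 was 0.74, under the size threshold.

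Of the 4 adaptors 3 were tested, and Ticam1 was the one that rose, where 25.7% of all tested genes rose. Ticam1, the adaptor of TLR3 and of the late TLR4 signal (ENSMUSG00000047123, chromosome 17, 56269319 to 56276786, minus strand), had 4.45, 2.35 and 1.64 FPKM in SSCs, from 258, 127 and 92 counts, and 11.69, 11.42 and 11.72 FPKM in iNSCs, from 656, 667 and 707 counts. Its groups did not overlap (log2 2.31, SE 0.32, adjusted p = 0.000421). Myd88, the adaptor of all Toll-like receptors but TLR3, had 10.98, 9.78 and 7.22 FPKM in SSCs and 11.53, 10.75 and 10.40 FPKM in iNSCs. Its groups overlapped in FPKM and its log2 difference of 0.48 (SE 0.16, adjusted p = 0.0242) was under the size threshold. The Ticam1 to Myd88 ratio in FPKM was 0.405, 0.240 and 0.227 in SSCs and 1.01, 1.06 and 1.13 in iNSCs. Tirap, which bridges TLR2 and TLR4 to MyD88, had a log2 difference of 0.86 (SE 0.22, adjusted p = 0.00850), and of 1.05 without SSCs replicate 3. Ticam2, the bridge from TLR4 to TRIF, had 7 counts in SSCs and 35 in iNSCs and was not tested, and 14.5% of its exonic bases are shared with Tmed7.

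All 4 IRAK kinases rose, where 25.7% of all tested genes rose. Irak1, which is phosphorylated once the receptor complex forms, varied least among the SSC libraries of the 4 kinases, with 6.26, 6.22 and 6.74 FPKM in SSCs, from 572, 530 and 595 counts, and 22.24, 22.48 and 20.70 FPKM in iNSCs, from 1968, 2070 and 1968 counts (log2 2.02, SE 0.11, adjusted p = 5.98e-06). Irak4, the kinase that acts first in the complex, had 2.22, 1.74 and 1.09 FPKM in SSCs, from 216, 158 and 102 counts, and 4.12, 3.90 and 3.90 FPKM in iNSCs, from 388, 382 and 395 counts (log2 1.5, SE 0.24). Irak2 was at 2.96, 2.32 and 0.63 FPKM in SSCs, from 253, 185 and 52 counts, and at 6.83, 7.46 and 7.12 FPKM in iNSCs, from 565, 643 and 633 counts (log2 2.13, SE 0.46). Irak3 encodes IRAK-M, an inhibitor of the complex. It had 1.15, 0.83 and 0.41 FPKM in SSCs, from 82, 55 and 28 counts, and 1.70, 1.73 and 1.92 FPKM in iNSCs, from 117, 124 and 142 counts (log2 1.43, SE 0.35, adjusted p = 0.00684). For Irak2, Irak3 and Irak4 SSCs replicate 1 was the highest SSC library and replicate 3 the lowest, and no SSC library reached the iNSC values. With limma on log2(FPKM + 1), Irak3 (0.65) and Irak4 (0.91) were under the size threshold.

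Of the 6 TRAF genes, 2 rose and 0 fell, beside 25.7% and 27.6% of all tested genes. Traf6, the ubiquitin ligase of the MyD88 branch, had 1.26, 1.66 and 1.95 FPKM in SSCs, from 193, 236 and 288 counts, and 4.86, 5.15 and 5.26 FPKM in iNSCs, from 719, 793 and 835 counts (log2 1.89, SE 0.20, adjusted p = 0.000117). Traf5, which serves TNF family receptors, had 0.99, 0.89 and 0.41 FPKM in SSCs, from 88, 73 and 35 counts, and 2.67, 2.41 and 2.85 FPKM in iNSCs, from 229, 215 and 262 counts (log2 2.06, SE 0.31). Traf4 was the most abundant TRAF per length, at 32.07 to 37.29 FPKM in SSCs and 42.23 to 48.45 FPKM in iNSCs. Its log2 difference was 0.64 (SE 0.10), close to that of Traf2 (0.62, SE 0.13), and neither reached the size threshold. Traf3, of the TRIF branch, had 14.08, 18.14 and 11.67 FPKM in SSCs and 13.21, 13.85 and 14.31 FPKM in iNSCs (log2 0.17, SE 0.16, adjusted p = 0.358). Traf1, often used as a readout of NF-kB, stayed at 0.06 to 0.15 FPKM in all 6 libraries (log2 0.61, SE 0.46, adjusted p = 0.259), and was called higher without SSCs replicate 3 (log2 1.18, adjusted p = 0.0334).

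The TAK1 complex held the member that fell. TAB2 and TAB3 are related proteins that bind ubiquitin chains and bring TAK1 to them. Tab3 (ENSMUSG00000035476, chromosome X, 85574022 to 85634469, plus strand) had 8.50, 11.79 and 13.48 FPKM in SSCs, from 1093, 1414 and 1675 counts, and 3.68, 3.87 and 3.65 FPKM in iNSCs, from 458, 502 and 488 counts (log2 -1.35, SE 0.20, adjusted p = 0.000589). Tab2 was the higher in iNSCs, with 10.17, 10.69 and 12.13 FPKM in SSCs and 18.77, 18.09 and 18.05 FPKM in iNSCs and a log2 difference of 0.98 (SE 0.12, adjusted p = 0.000235), just under the size threshold. It passed the threshold without SSCs replicate 3 (1.08), without any 1 of the iNSC libraries (1.01 to 1.03) and without the count minimum (1.02). The Tab3 to Tab2 ratio was 0.836 to 1.11 in SSCs and 0.196 to 0.214 in iNSCs. Map3k7, the gene of TAK1, had a log2 difference of 0.49 (SE 0.13) and Tab1, its constitutive partner, of 0.22 (SE 0.12, adjusted p = 0.139). Map3k14, the gene of NIK, which drives the alternative NF-kB path, was at 2.50 to 4.49 FPKM in SSCs and 3.16 to 3.56 FPKM in iNSCs (log2 0.32, SE 0.26, adjusted p = 0.295).

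Of the 3 RIP kinases, Ripk1 rose, where 25.7% of all tested genes rose. Ripk1, a scaffold of TNF receptor and TRIF signals, had 2.49, 2.36 and 1.84 FPKM in SSCs, from 402, 356 and 288 counts, and 7.74, 7.30 and 7.68 FPKM in iNSCs, from 1211, 1189 and 1291 counts (log2 2.02, SE 0.13, adjusted p = 1.16e-05), and 9.01% of its exonic bases are shared with other genes. Ripk3, the kinase of necroptosis, was the more abundant per length in every library, with 24.55, 24.62 and 26.73 FPKM in SSCs and 15.79, 14.19 and 17.97 FPKM in iNSCs. All iNSC libraries were below all SSC libraries in FPKM, which lacks the library scaling of the test (TMM, described below). The log2 difference of -0.41 (SE 0.13, adjusted p = 0.0244) was under the size threshold. The Ripk1 to Ripk3 ratio lay at 0.0688 to 0.101 in SSCs and 0.427 to 0.514 in iNSCs. Ripk2, the kinase of the NOD receptors, was at 11.84, 10.19 and 8.33 FPKM in SSCs and 8.27, 9.0 and 8.65 FPKM in iNSCs (log2 0.03, SE 0.14, adjusted p = 0.850).

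Ikbke held the largest log2 difference of all tested members. It encodes IKK epsilon, an inducible relative of TBK1 (ENSMUSG00000042349, chromosome 1, 131254343 to 131279606, minus strand), and had 156, 92 and 58 counts in SSCs replicates 1 to 3 and 2885, 3170 and 3342 counts in iNSCs. In FPKM these were 0.89, 0.56 and 0.34 against 17.05, 18.00 and 18.39 (log2 5.15, SE 0.30, adjusted p = 9e-06). Tbk1 itself had 11.57, 11.77 and 14.89 FPKM in SSCs, from 876, 831 and 1090 counts, and 13.29, 12.30 and 12.35 FPKM in iNSCs, from 975, 939 and 973 counts, with overlapping groups (log2 0.24, SE 0.15, adjusted p = 0.182). The Ikbke to Tbk1 ratio was 0.0769, 0.0476 and 0.0228 in SSCs and 1.28, 1.46 and 1.49 in iNSCs.

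The canonical IKK complex joins 2 kinases, IKK alpha (Chuk) and IKK beta (Ikbkb), to the regulatory subunit NEMO (Ikbkg). Ikbkb, the main IkB kinase, had 1.85, 1.92 and 1.89 FPKM in SSCs, from 684, 661 and 676 counts, and 6.50, 6.90 and 7.11 FPKM in iNSCs, from 2327, 2572 and 2735 counts (log2 2.11, SE 0.10, adjusted p = 4.38e-06). Ikbkg was at 3.65, 3.41 and 2.58 FPKM in SSCs, from 574, 499 and 392 counts, and 10.09, 9.88 and 9.26 FPKM in iNSCs, from 1536, 1564 and 1514 counts (log2 1.86, SE 0.13, adjusted p = 1.88e-05), and 5.15% of its exonic bases lie opposite G6pdx. Chuk, which also serves the alternative path, was not called. It had 15.99, 18.92 and 21.63 FPKM in SSCs, from 1576, 1738 and 2060 counts, and 12.32, 12.36 and 12.25 FPKM in iNSCs, from 1176, 1228 and 1256 counts (log2 -0.37, SE 0.15, adjusted p = 0.0535). All iNSC libraries were below all SSC libraries in FPKM, which lacks TMM scaling. With 1 library left out, the adjusted p of Chuk lay between 0.0038 and 0.162.

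The ratios of these subunits within a library did not overlap between the groups. Each sets a gene that rose against Chuk, which was not called. Over all genes tested, 25.7% rose and 27.6% fell, and how many pairs of genes separate in this way was not computed. The Ikbkb to Chuk ratio in FPKM was 0.116, 0.101 and 0.0874 in SSCs and 0.528, 0.558 and 0.580 in iNSCs, and the Ikbkg to Chuk ratio 0.119 to 0.228 and 0.756 to 0.819. The ratio itself depends on exonic lengths. The table gives Ikbkb 19078 exonic bases and Chuk 5087, so FPKM understates Ikbkb if most of its transcripts are shorter. The shift between groups does not depend on these lengths unless the transcripts used differ.

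**Figure D3:**
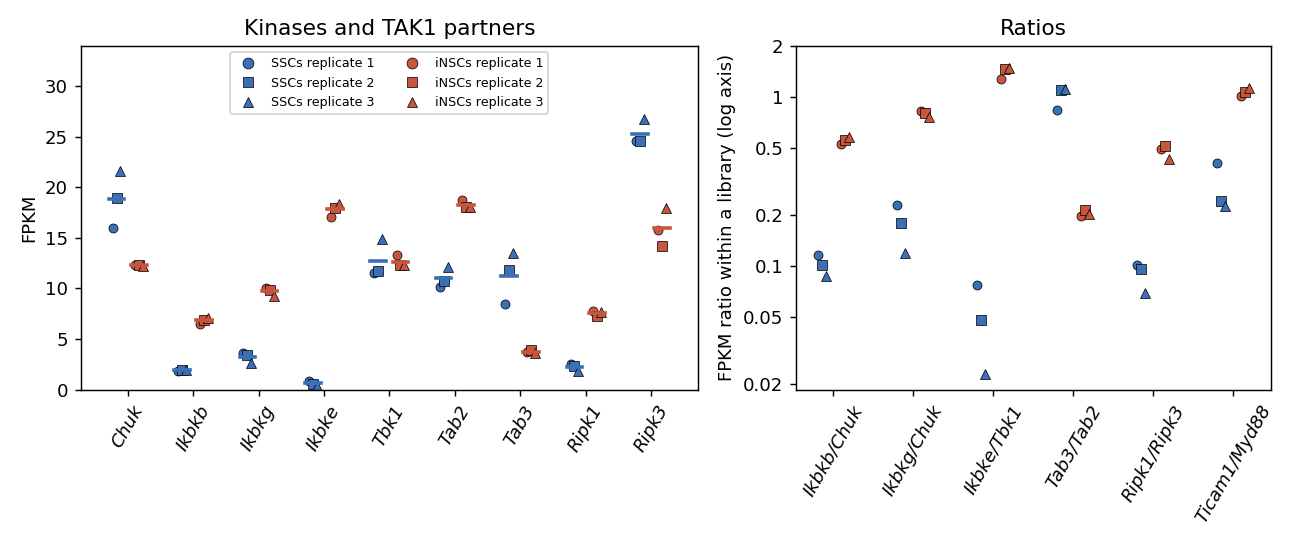
Left, FPKM of 5 IKK family genes, Tab2, Tab3, Ripk1 and Ripk3 in each library, with group means as lines. Right, within-library FPKM ratios on a log axis, each of a gene that rose or fell to one that was not called. The groups do not overlap in any of these 6 ratios, which follows largely from that choice of pairs. How many pairs of genes separate in this way was not computed. Ikbke to Tbk1 runs from 0.0228 to 1.49.

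Spread among the SSC libraries set how precisely a rise was known. Over the tested members the median coefficient of variation was 24.3% in SSCs and 4.58% in iNSCs, against 20.2% and 8.6% over all tested genes. Among members that rose, the ratio of the highest to the lowest SSC library ran from 1.04 for Ikbkb and 1.08 for Irak1 to 4.70 for Irak2 and 11.0 for Nod2. In TMM-scaled CPM the highest SSC value was in replicate 1 for 10 of these 18 genes, and the lowest in replicate 3 for 10. Of all 4470 genes that rose, 58.9% were highest in SSCs replicate 1 and 55.1% lowest in SSCs replicate 3, a similar pattern. Tlr3, Tlr4, Tlr5, Irak1, Traf6 and Ikbkb, 6 of the 18, were instead lowest in replicate 1 on this scale. Of these, Tlr5 was highest in replicate 2 and the rest in replicate 3. Among all genes that rose, 19.8% were lowest in SSCs replicate 1. Replicate 1 also had the highest sums of Sertoli, fibroblast and macrophage markers among SSCs. The Sertoli sum was mostly Clu at 279.73 FPKM and the macrophage sum mostly Lyz2 at 33.23 FPKM. Lyz2 had 0.93 and 4.3 FPKM in replicates 2 and 3. Cd68 ran the other way, at 5.22, 9.74 and 11.82 FPKM in SSCs replicates 1 to 3. Fcer1g, Mrc1 and Ptprc were also highest in replicate 3. The rest of the macrophage list, at up to 0.54 FPKM in SSCs, was highest in replicate 1. The part of these cell types in the values was not tested.

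**Figure D4:**
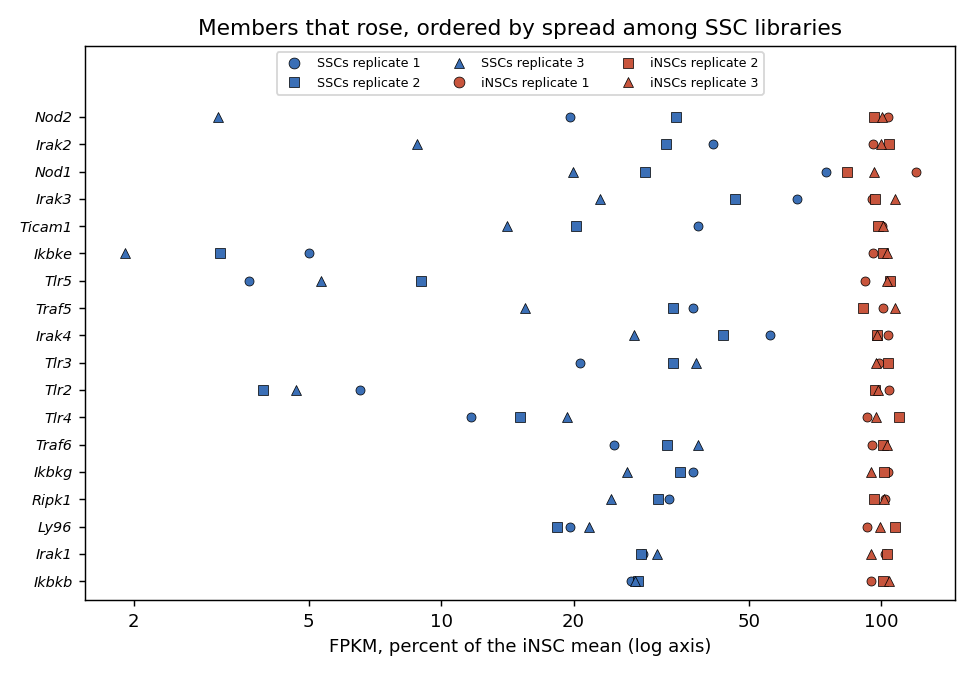
FPKM of the 18 members that rose, in each library as a percentage of the iNSC mean on a log axis, ordered by the spread among SSC libraries. The iNSC libraries lie close together, while SSC values of Nod2, Irak2 and Nod1 spread widest and those of Ikbkb and Irak1 least.

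Since macrophages carry many of these receptors, their markers were read in the same libraries. The 14 macrophage markers summed to 43.5, 13.0 and 23.6 FPKM in SSCs replicates 1 to 3 and to 26.4, 25.5 and 27.4 FPKM in iNSCs. Of 7 tested, Csf1r, the receptor of a macrophage growth factor, rose to 7.10, 7.68 and 7.89 FPKM, Aif1 rose to 3.65 to 4.71 FPKM, and Fcer1g fell. Cd68, a lysosomal protein that other cells also make, had 7.80, 8.64 and 7.85 FPKM in iNSCs, and Lyz2, the lysozyme of myeloid cells, had 6.68, 3.39 and 6.71 FPKM, neither being called. Within iNSCs, the other markers of the list were at lower levels than Csf1r, Aif1, Cd68 and Lyz2. Mrc1 had 0.19, 0.3 and 1.86 FPKM in SSCs and 0.35 to 0.68 FPKM in iNSCs. Ptprc had 0.04, 0.06 and 0.22 FPKM in SSCs and 0.15 to 0.21 FPKM in iNSCs, and neither was called. In iNSCs Tyrobp was at up to 0.32 FPKM and Adgre1 at up to 0.29 FPKM. C1qa was at 0 FPKM, Cx3cr1 at up to 0.02 and Itgam at up to 0.04 FPKM. The 6 lymphoid and dendritic markers summed to 0.12 to 0.21 FPKM there. Epithelial markers rose in 6 of 7 genes and Sertoli markers in 5 of 5 tested, together with the receptor and kinase genes. Of all tested genes, 25.7% rose. The part of macrophage, fibroblast, epithelial and Sertoli cells in these results was not tested.

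Genes that act beside the members were read from lists of co-receptors, regulators and related sensors. Of 75 listed genes 67 were tested, 25 rose and 9 fell, with a median log2 difference of 0.66, where 25.7% of all tested genes rose and 27.6% fell. Co-receptors and chaperones rose in 4 of 7 tested genes and fell in 1, Nrros. Lbp, which delivers lipopolysaccharide, went from 0.167 ± 0.168 to 20.8 ± 3.69 FPKM (SD, n = 3 in each group; log2 7.21) and Cd14, which passes it to the TLR4 complex, from 1.27 ± 0.296 to 96.3 ± 14.6 FPKM (log2 6.50). The others were Cd36 and Unc93b1, the chaperone of endosomal receptors (2.45 ± 1.52 to 28.95 ± 4.01 FPKM).

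Receptors that share IRAK, TRAF or RIP proteins with the members rose in 9 of 11 genes and fell in 0 (median log2 2.56), beside 25.7% and 27.6% of all tested genes. Il18r1, an interleukin receptor that uses MyD88 and IRAKs, went from 6 counts in SSCs to 1492 in iNSCs, and Cd40, a TRAF-binding receptor, had a log2 difference of 5.12. Of 8 genes of the MAP kinase arm, Map2k3 rose (log2 1.27) and Mapk8, the gene of JNK1, fell (log2 -1.08). Among 8 TBK1 scaffolds and interferon regulatory factors, Tank rose (log2 1.19) and Irf8, a factor of myeloid cells, fell (log2 -2.66). Irf3, the main target of TBK1, had a log2 difference of 0.35 (adjusted p = 0.0220). The ubiquitin ligases and scaffolds counted 2 rises, Birc3 (log2 2.63) and Sharpin (log2 1.02), and 1 fall, Peli2 (log2 -3.06), in 11 genes. Other pattern receptors and adaptors counted 2 rises, Mavs (log2 2.68) and Ddx58 (log2 2.26), and 2 falls, Aim2 and Pycard, in 9 tested genes.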

How the data were processed

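Polyadenylated RNA was sequenced after a stranded library kit, per the labels' protocols. The authors deposited read counts per Ensembl gene and FPKM values, without further normalization: FPKM recomputed from counts, exonic length and column totals agreed within 0.005. HISAT2, DESeq2 and mm9 are named in the submitters' processing notes; the counter, its strand setting and its handling of multiply matching reads were not given in the sources used here. Coordinates of all 42 members are those of GENCODE M21 on GRCm38, and members that overlap genes on the other strand, such as Myd88 with Acaa1a, may hold some of their reads.

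Counts of the whole table were fitted with edgeR 4.0.16 (R 4.3.3) after its default filter (minimum count 10, total 15) and TMM scaling, with group as the one term and the two-sided quasi-likelihood test. TMM factors were 1.05 to 1.14 in SSCs and 0.906 to 0.921 in iNSCs, and FPKM does not carry them. Differences read from FPKM therefore place iNSCs lower against SSCs than the log2 differences do. Calls needed a Benjamini-Hochberg adjusted p under 0.05 over all tested genes and a log2 difference of 1 or more in size. Each SE is the log2 difference divided by the square root of the F statistic. The steps were tested on simulated data. Alternatives were DESeq2 1.42.0, limma 3.58.1 on log2 FPKM with pseudocounts of 1 and 0.1, library totals, no filter, a minimum count of 50, no size threshold, a replicate block and leaving out each library. Members, lists and the rule for naming genes (all members, and from each list the called genes of largest log2 difference, up to 2, whose higher group averaged 1 FPKM or more) were chosen with earlier results of these data known. Other genes were named after their values were seen. The labels do not say that replicates are separate cultures, so p-values reflect only how these libraries spread, which may be technical.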

Additional observations from a re-analysis of the deposited data

How the results depend on the processing

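The 18 rises held under DESeq2, library totals, limma with a pseudocount of 0.1, no count minimum, a minimum of 50, the replicate block, and without any library except SSCs replicate 2 (Nod1 lost). Leaving out libraries for Tlr7, Tlr9 and Tlr12 was chosen after seeing the data; Tlr7 then gave count ratios of 5.06 to 10.1. Counts without a library were 19 to 23 for members higher, 1 to 2 lower, 24 to 29 and 8 to 10 for the listed neighbours, and 4411 to 4839 and 4730 to 5189 for all genes. With limma on log2(FPKM + 1) 15 members rose, without Nod2, Irak3 and Irak4, and 2746 genes in all. Members lower numbered 2 under DESeq2 and without the count minimum (Tab3 and Tlr12), and 2 with the adjusted p alone (Tab3 and Ripk3), where 16 listed neighbours were lower. Library totals moved log2 differences by a median of -0.25, limma on log2(FPKM + 1) by -0.22 and on log2(FPKM + 0.1) by -0.23. In that order, genes near 0 changed sign: Traf3 (-0.087, -0.060, -0.062), Tab1 (-0.029, -0.023, -0.025), Ripk2 (-0.23, -0.19, -0.21) and Tbk1 (-0.013, -0.0025, -0.0022). Ripk2 was also at -0.049 with a minimum of 50, and between -0.081 and 0.131 without 1 library. Deviations of same-numbered libraries correlated at 0.0907, 0.0496 and -0.015, so the numbers were not taken as pairs. Not every library correlated best with its own number. The replicate block gave 18 members higher and 1 lower. Depth limits Tlr1, Tlr7, Tlr9, Tlr12, Tlr13 and Ticam2, which had too few counts for the test.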

Other observations

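Of 13 inhibitors of the pathway, 6 rose and 3 fell (median log2 0.75), beside 25.7% and 27.6% of all tested genes. Sigirr, a receptor-like inhibitor of Toll-like and interleukin 1 receptors, went from 0.630 ± 0.315 to 8.68 ± 0.163 FPKM (SD, n = 3 in each group), and Tnfaip3, the ubiquitin editor A20, from 2.36 ± 0.905 to 15.4 ± 1.23 FPKM. The remaining members of this list were chosen after their values were seen. The deubiquitinase gene Cyld (log2 2.02) rose, as did Tnip1 (log2 1.72) and Tnip3, which both encode binding partners of A20, and Nlrc3. The third partner, Tnip2, fell (log2 -1.31), and so did Sarm1 and Rnf216 (log2 -2.34). Tollip, an adaptor that restrains IRAK1, was at 28.7 ± 2.77 and 23.8 ± 0.207 FPKM (log2 -0.02, adjusted p = 0.874).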
